A study of Mus musculus with 12 samples.

Results

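The genes described here are 47 genes of mitosis and chromosome segregation, taken by name from 10 groups of textbook function. They are kinases and cyclins that start mitosis, the spindle checkpoint, anaphase regulators, the chromosomal passenger complex, centromere proteins, kinesin motors, spindle assembly factors, condensin and chromosome proteins, cytokinesis proteins and 2 transcription factors. The rule uses gene names and no measured value, but the members were chosen with earlier results of these data known. All 47 were found among the 36875 gene symbols of the count table, and all 47 passed the filter on low counts. They lie on 15 chromosomes.

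RNA was sequenced from cultured mouse fibroblast-like synoviocytes, which line the joint capsule, in 12 poly(A) libraries. The protocol names mice with arthritis induced by tumour necrosis factor (TNF). The homeostasis group (4 libraries, described as WT) came from animals that drank 5% sucrose water during 3 weeks. The inflammation group (4 libraries, DOX ON) came from animals whose sucrose water also held 1 mg/ml doxycycline over that time, and in the resolution group (4 libraries, DOX OFF) the drug was then stopped. The sources used here do not give the promoter that drives TNF, the strain, any transgene of the WT animals, ages, the time since withdrawal or the passage. Nothing states that libraries within a group are separate animals or cultures, so each p-value reflects the spread among these samples, possibly a technical one.

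Cells enter mitosis when cyclin-dependent kinase 1 is switched on by A- and B-type cyclins and CDC25 phosphatases. The spindle checkpoint holds them there until kinetochores are attached, and the anaphase-promoting complex then destroys securin and cyclin B. Most of these genes are transcribed periodically, with a peak late in the cell cycle, so their RNA in a population is widely used as a readout of cycling cells. MuvB with B-MYB and FOXM1 activates many of them through a promoter element called CHR, often beside CCAAT boxes bound by NF-Y. Synovial fibroblasts divide in culture, and the lining thickens in arthritis.

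Total counts ran from 18120745 to 34971537 per library. Levels are CPM, counts relative to the scaled library size, and 3 counts, the limit that a count of 0 allows, were 0.086 to 0.166 CPM. Summed levels of Ddx3y, Eif2s3y, Kdm5d and Uty, genes of the Y chromosome, were 61.2 to 73.0 CPM in homeostasis and 0 to 0.137 CPM in the other 8 libraries. Only the homeostasis libraries are described as WT. Sex, any difference of genotype and doxycycline therefore cannot be told apart in either comparison with homeostasis. The mouse gene symbol Tnf was at 1.78 to 6.39 CPM in homeostasis, 0.573 to 1.76 CPM in inflammation and 0.136 to 0.467 CPM in resolution. The sources used here do not state whether RNA of an induced TNF gene would be counted under this symbol. The 9 fibroblast markers, collagens among them, summed to 23035 to 24670.0, 17599 to 20975 and 6552 to 12492 CPM in the same order, and none was at 0. The 10 macrophage markers summed to 68.3 to 135, 559 to 653 and 40.8 to 44.9 CPM, with Ptprc at 0 in 1 resolution library. Cartilage markers summed to 866 to 1122 CPM in homeostasis and 36.4 to 45.1 and 63.0 to 94.7 CPM in the other groups, and Matn1 was at 0 in 10 of 12 libraries. The cartilage markers did not move together. Log2 fold changes of the 5 tested ran from -8.30 to 0.47 in inflammation and from -8.24 to 0.82 in resolution, each against homeostasis.

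RefSeq promoters of 5 members (build GRCm38.p6) are printed to show the elements that this gene class is known for. Each is the 120 bases before the start annotated by RefSeq, read 5′ to 3′ on the strand of the gene. GENCODE annotates 26 of these bases in Cdk1, 27 in Espl1 and 9 in Cdc20 as untranslated region of a transcript. In Kif11 and Top2a it annotates 0. Of 7 candidate windows, the 5 with at most 30 such bases are printed. Capitals mark TTTGAA, or TTCAAA where it lies on the opposite strand, and CCAAT, or ATTGG on the opposite strand. Promoters were chosen for holding TTTGAA with a CCAAT farther upstream in these bases, so their shared order is not a result. Cdc20 lies at chr4:118437344-118437463 (minus strand), Cdk1 at chr10:69352913-69353032 (minus), Espl1 at chr15:102296173-102296292 (plus), Kif11 at chr19:37376262-37376381 (plus) and Top2a at chr11:99024190-99024309 (minus).
Cdc20: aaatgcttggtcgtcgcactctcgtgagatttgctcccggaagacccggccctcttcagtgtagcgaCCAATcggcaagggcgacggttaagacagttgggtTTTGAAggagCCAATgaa
Cdk1: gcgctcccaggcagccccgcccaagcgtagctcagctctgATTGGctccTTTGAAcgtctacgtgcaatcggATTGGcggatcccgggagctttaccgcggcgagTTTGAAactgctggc
Espl1: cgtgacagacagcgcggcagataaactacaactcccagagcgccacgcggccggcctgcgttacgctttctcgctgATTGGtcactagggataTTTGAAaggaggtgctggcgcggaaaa
Kif11: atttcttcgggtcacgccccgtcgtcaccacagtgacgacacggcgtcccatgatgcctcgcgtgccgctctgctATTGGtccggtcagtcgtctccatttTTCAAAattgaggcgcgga
Top2a: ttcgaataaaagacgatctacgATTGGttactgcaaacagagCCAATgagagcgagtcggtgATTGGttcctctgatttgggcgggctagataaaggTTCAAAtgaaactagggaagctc

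Counted with the base before the start as -1, TTTGAA began at -18 in Cdc20, at -71 and -15 in Cdk1, at -27 in Espl1, at -19 in Kif11 and at -23 in Top2a. CCAAT began at -53 and -8 in Cdc20, at -80 and -48 in Cdk1, at -44 in Espl1, at -45 in Kif11 and at -98, -78 and -58 in Top2a. By the GENCODE annotation, TTTGAA at -15 in Cdk1 and at -27 in Espl1, and CCAAT at -8 in Cdc20, lie within the transcript. In windows from 250 bases before to 50 after the start, available for 39 members, TTTGAA on either strand was found in 29 members (74.4%), against 14.6% of the 10788 tested genes with a window. The variant TTCGAA was in 4 members (10.3%, against 2.42%), and CCAAT in 32 members (82.1%, against 42.5%). Both kinds of element were in 29 members (74.4%, against 6.91%). Log2 fold changes of the 31 members with TTTGAA or TTCGAA had medians of -1.66 in inflammation and -3.01 in resolution against homeostasis, and those of the 8 without either had medians of -1.81 and -2.94. These letters describe the windows and say nothing of which factor was bound.

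Against homeostasis, nearly all 47 genes were lower with doxycycline, whether continued or stopped, and they were lower again in resolution than in inflammation. Summed over the 47 genes, homeostasis libraries 1 to 4 held 3738, 3664, 3252 and 3289 CPM, inflammation libraries 1125, 1115, 1103 and 999 CPM and resolution libraries 533, 451, 544 and 535 CPM. Relative to each gene's homeostasis mean, the median gene stood at 31.1, 29.8, 28.9 and 28.2% in the 4 inflammation libraries and at 13.2, 12.6, 13.9 and 14.1% in the 4 resolution libraries. The groups did not overlap in either measure. In bulk RNA, fewer cycling cells and less RNA per cycling cell cannot be told apart.

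**Figure D1:**
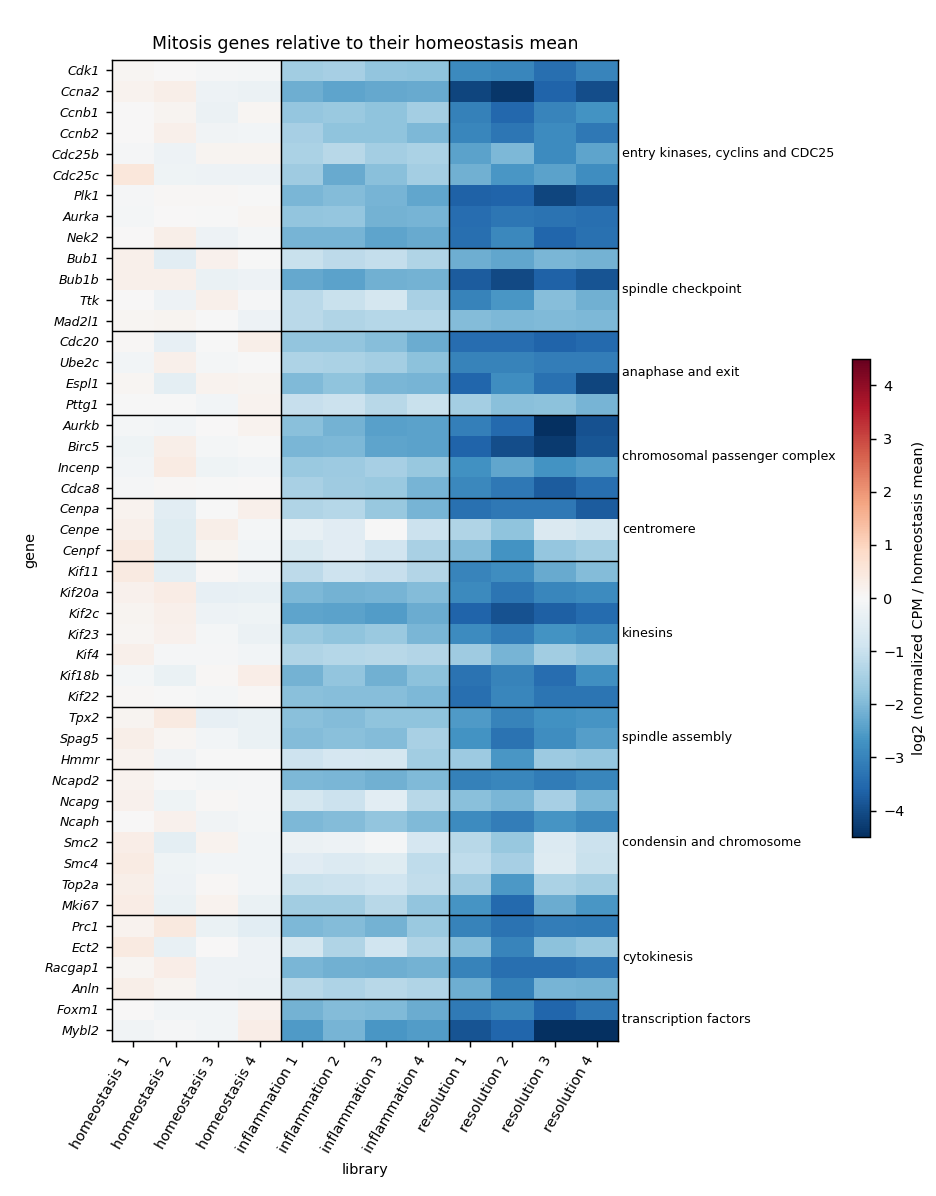
Level of each of the 47 genes in each of the 12 libraries, as the log2 difference from the gene's homeostasis mean, with genes grouped by role. The median gene stands at 28.2% to 31.1% of its homeostasis mean in inflammation and at 12.6% to 14.1% in resolution.

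In inflammation against homeostasis, 45 genes were lower, none was higher, and Cenpe and Smc2 did not pass (edgeR quasi-likelihood test, adjusted p under 0.05 over 15049 genes). Of all genes tested, 18.3% were lower and 19.0% higher. The median log2 fold change of the 47 was -1.77, with a range from -2.42 to -0.32, against -0.01 over all genes. At least 2-fold lower were 40 members, against 4.98% of all genes. Every inflammation library was below every homeostasis library for 44 members, against 17.3% of all genes.

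In resolution against homeostasis, all 47 were lower, at least 2-fold, and without overlap between the groups. The shares over all genes were 25.8% lower, 27.5% higher, 8.25% at least 2-fold lower and 21.6% without overlap. The median log2 fold change was -2.96, from -4.16 for Mybl2 to -1.02 for Smc4, against -0.01 over all genes. In resolution against inflammation, 44 members were lower and none was higher, against 7.64% lower and 8.52% higher of all genes. Cenpe, Kif4 and Smc4 did not pass. The median was -1.12, with a range from -1.78 to -0.33, against 0.02 over all genes. At least 2-fold lower were 30 members (3.24% of all genes), and the groups did not overlap for 43 (9.91%). The 3 comparisons share libraries with each other, so their values are not independent. Lower in all 3 were 43 members, against 2.78% of all genes, and no member was lower in both doxycycline groups yet higher in resolution than in inflammation (0.233% of all genes).

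**Figure D2:**
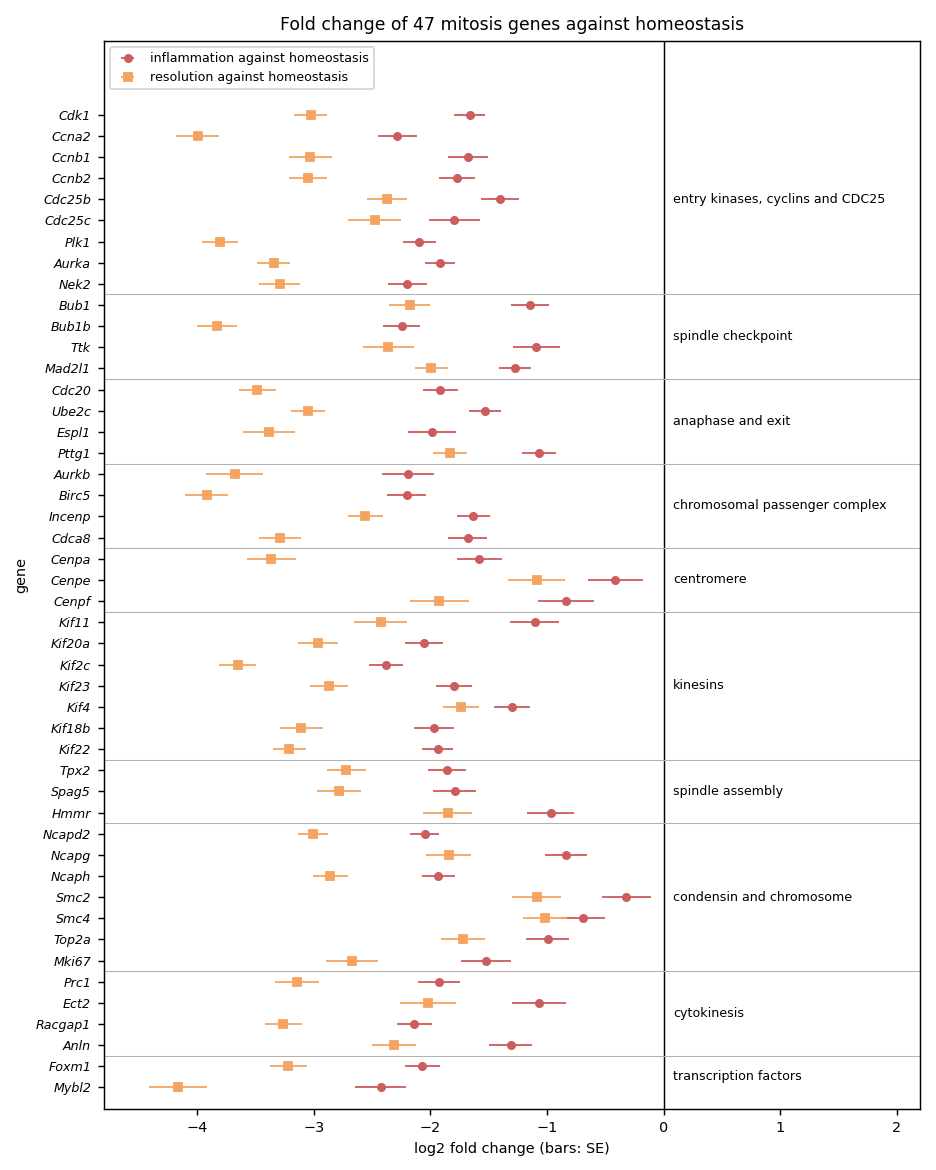
Log2 fold change of each of the 47 genes in inflammation (circles) and in resolution (squares) against homeostasis, with bars of 1 standard error, grouped by role. All 47 genes lie below 0 in both, between -2.42 and -0.32 in inflammation and between -4.16 and -1.02 in resolution.

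The 9 kinases, cyclins and CDC25 phosphatases that drive entry were all lower in each comparison, with median log2 fold changes of -1.79 in inflammation and -3.05 in resolution against homeostasis, and -1.35 between them. Plk1, the polo-like kinase (ENSMUSG00000030867.7, build GRCm38, chr7:122159439-122169873, plus strand), was at 128, 139, 139.8 and 132 CPM in homeostasis, 32.5, 35.2, 32.0 and 26.6 CPM in inflammation and 10.9, 11.1, 7.63 and 9.06 CPM in resolution. The groups lay apart, and the log2 fold change was -2.09 (SE 0.14, adjusted p = 1.96e-09) in inflammation and -3.80 (SE 0.15, adjusted p = 1.42e-12) in resolution. Cdk1, the kinase at the centre of mitotic entry, was at 221, 210.5, 198 and 196 CPM in homeostasis, 69.2, 73.0, 59.7 and 58.6 CPM in inflammation and 28.1, 27.0, 19.7 and 26.3 CPM in resolution. Its log2 fold change was -1.66 (SE 0.13, adjusted p = 1.52e-08) in inflammation and -1.36 (SE 0.13, adjusted p = 6.84e-07) between resolution and inflammation, again without overlap. Ccnb1, the B-type cyclin, was at 20.5, 21.6, 16.9 and 21.3 CPM in homeostasis, 6.08, 6.31, 5.78 and 6.89 CPM in inflammation and 2.42, 1.73, 2.59 and 3.10 CPM in resolution, and Ccna2, the A-type cyclin, was at 78.8, 84.7, 60.5 and 59.0 CPM in homeostasis, 15.5, 13.6, 14.5 and 14.6 CPM in inflammation and 4.07, 3.41, 5.81 and 4.44 CPM in resolution. Ccna2 had the larger fold change of the pair, -3.99 (SE 0.19, adjusted p = 4.17e-12) in resolution against -3.03 (SE 0.19, adjusted p = 1.20e-10) for Ccnb1. The difference between these 2 genes was not tested. Aurka, the centrosomal Aurora kinase, was at 98.3, 105, 102 and 110.0 CPM in homeostasis, 30.4, 31.0, 23.9 and 24.6 CPM in inflammation and 9.74, 11.0, 10.3 and 9.94 CPM in resolution. Cdc25b, a phosphatase that activates Cdk1, was at 43.6, 38.2, 48.7 and 49.1 CPM in homeostasis, 16.6, 19.0, 15.5 and 16.7 CPM in inflammation and 8.50, 11.2, 6.35 and 8.64 CPM in resolution, and its log2 fold change of -2.37 (SE 0.17, adjusted p = 1.05e-09) in resolution was the smallest of the 9. Ccnb2 and the centrosome kinase Nek2 were likewise lower in all 3 comparisons without overlap. Cdc25c was lower in resolution than in inflammation by a narrow margin, -0.68 (SE 0.23, adjusted p = 0.0492), with overlapping libraries, and leaving out any of 7 libraries, homeostasis 3, inflammation 1, 3 or 4, or resolution 2, 3 or 4, gave adjusted p-values from 0.0544 to 0.152.

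All 4 checkpoint genes were lower in each comparison, with medians of -1.21, -2.27 and -1.15 in the order inflammation and resolution against homeostasis, then resolution against inflammation. Bub1b, which encodes the checkpoint kinase-like protein BubR1, was at 108, 106, 75.4 and 78.4 CPM in homeostasis, 18.5, 17.2, 20.7 and 21.2 CPM in inflammation and 6.80, 5.46, 7.44 and 6.19 CPM in resolution. Ttk, the kinase Mps1, was at 17.2, 14.2, 19.5 and 16.4 CPM in homeostasis, 7.31, 8.31, 9.70 and 6.19 CPM in inflammation and 2.11, 2.71, 4.40 and 3.79 CPM in resolution. Their groups did not overlap, and the log2 fold change in inflammation was -2.25 (SE 0.16, adjusted p = 2.77e-09) for Bub1b and -1.09 (SE 0.20, adjusted p = 0.000315) for Ttk. Bub1 and Mad2l1, the other checkpoint members, had log2 fold changes in resolution against homeostasis of -2.18 and -1.99.

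The 4 genes of anaphase and mitotic exit were lower in each comparison, with medians of -1.72, -3.22 and -1.46. Cdc20, which activates the anaphase-promoting complex, was at 150.4, 114, 145 and 177 CPM in homeostasis, 42.5, 42.5, 39.0 and 31.5 CPM in inflammation and 13.7, 13.7, 11.9 and 13.1 CPM in resolution. Ube2c, the ubiquitin-conjugating enzyme of that complex, was at 101, 129.8, 103 and 109 CPM in homeostasis, 42.7, 40.9, 38.5 and 30.9 CPM in inflammation and 13.7, 13.9, 12.8 and 12.9 CPM in resolution. Both were below every homeostasis library in each treated library, with log2 fold changes in resolution of -3.48 (SE 0.16, adjusted p = 3.49e-12) and -3.05 (SE 0.15, adjusted p = 4.26e-12). Espl1, the protease separase that cuts cohesin, was at 58.6, 40.6, 61.2 and 59.3 CPM in homeostasis, 13.7, 15.5, 13.2 and 12.9 CPM in inflammation and 4.59, 7.89, 5.36 and 3.14 CPM in resolution, and Pttg1, its inhibitor securin, was at 42.1, 42.3, 39.7 and 47.4 CPM in homeostasis, 21.0, 21.7, 17.9 and 21.3 CPM in inflammation and 14.8, 11.5, 11.8 and 9.98 CPM in resolution. The log2 fold change in resolution was -3.39 (SE 0.22, adjusted p = 3.25e-10) for Espl1 and -1.83 (SE 0.15, adjusted p = 6.71e-09) for Pttg1, the smallest of the 4. The difference between Espl1 and Pttg1 was not tested.

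The 4 genes of the chromosomal passenger complex, which corrects wrong spindle attachments, were lower in each comparison, with medians of -1.94, -3.48 and -1.55. Birc5, which encodes survivin, was at 56.3, 77.4, 59.6 and 62.6 CPM in homeostasis, 15.5, 15.7, 12.3 and 12.0 CPM in inflammation and 5.21, 4.06, 3.22 and 4.48 CPM in resolution. Incenp, the scaffold of the complex, was at 155, 217, 147 and 152 CPM in homeostasis, 52.2, 54.0, 59.5 and 51.2 CPM in inflammation and 25.4, 33.0, 25.9 and 29.7 CPM in resolution. Groups were apart for both, and the log2 fold change in resolution was -3.92 (SE 0.18, adjusted p = 4.17e-12) for Birc5 and -2.56 (SE 0.15, adjusted p = 6.69e-11) for Incenp. The kinase Aurkb and the subunit Cdca8 had log2 fold changes of -3.68 and -3.29 in resolution.

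Of 3 centromere genes, 2 were lower in inflammation, all 3 in resolution against homeostasis, and 2 in resolution against inflammation. Cenpa, the centromeric histone H3 variant, was at 67.5, 43.9, 60.7 and 72.00 CPM in homeostasis, 23.6, 24.8, 18.9 and 14.2 CPM in inflammation and 5.93, 6.63, 6.58 and 4.53 CPM in resolution. Its log2 fold change in resolution against inflammation was -1.78 (SE 0.20, adjusted p = 3.61e-06). Cenpe, a kinetochore motor (ENSMUSG00000045328.11, GRCm38, chr3:135212537-135273611, plus strand), was at 34.98, 20.4, 35.4 and 28.1 CPM in homeostasis, 23.6, 20.9, 29.5 and 15.1 CPM in inflammation and 11.5, 8.41, 18.8 and 17.0 CPM in resolution. Inflammation overlapped both other groups, with a log2 fold change of -0.42 (SE 0.24, adjusted p = 0.179) against homeostasis and -0.67 (SE 0.24, adjusted p = 0.0618) for resolution against inflammation. It passed in resolution against homeostasis, -1.09 (SE 0.24, adjusted p = 0.000872). Between resolution and inflammation it also passed in a fit blocked by replicate number (adjusted p = 0.0362), and without homeostasis library 2, inflammation library 4 or resolution library 3 (adjusted p = 0.0408, 0.0311 and 0.0441). The DESeq2 Wald test (adjusted p = 0.0355) and upper-quartile scaling in edgeR (adjusted p = 0.0397) let Cenpe pass there too. With DESeq2 size factors in edgeR it did not pass. Cenpf, a kinetochore protein, overlapped between inflammation and homeostasis yet passed, -0.84 (SE 0.24, adjusted p = 0.00975).

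**Figure D3:**
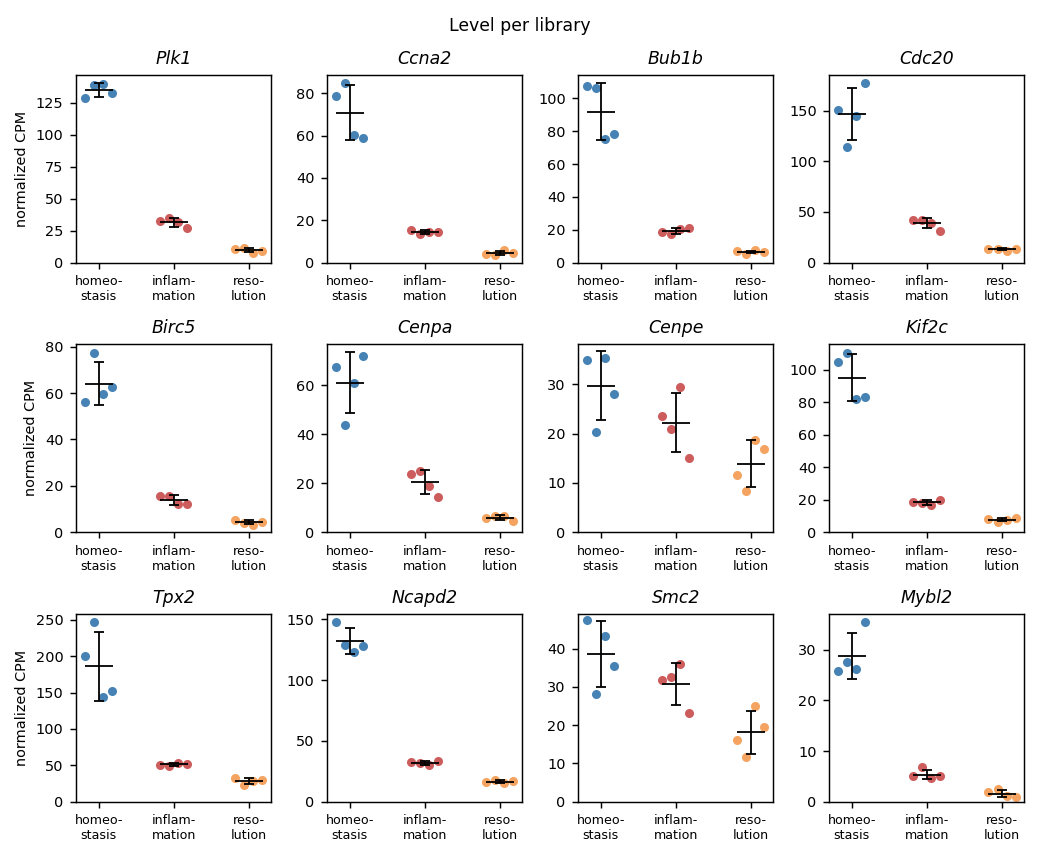
Normalized CPM of 12 members, with 1 panel per gene, 1 point per library, and a line and bars for the mean and SD of each group of 4. Plk1 falls into 3 separate levels, and Cenpe and Smc2 overlap between homeostasis and inflammation.

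All 7 kinesin genes were lower against homeostasis in both groups, with medians of -1.94 and -2.96, and 6 were lower in resolution than in inflammation, with a median of -1.14. Kif2c, a motor that takes microtubules apart at centromeres, was at 105, 111, 82.2 and 83.3 CPM in homeostasis, 18.3, 17.97, 16.8 and 20.1 CPM in inflammation and 7.89, 6.31, 7.54 and 8.55 CPM in resolution. Its log2 fold change of -2.38 (SE 0.15, adjusted p = 6.77e-10) in inflammation was the lowest of the kinesins. Kif11, the motor that pushes spindle poles apart, was at 25.8, 14.3, 20.4 and 17.9 CPM in homeostasis, 8.68, 10.2, 9.60 and 7.82 CPM in inflammation and 2.53, 2.80, 4.04 and 5.13 CPM in resolution, with -1.11 (SE 0.21, adjusted p = 0.000407) in inflammation. Neither gene overlapped between groups. Kif4 did not pass between resolution and inflammation although its libraries did not overlap, -0.44 (SE 0.15, adjusted p = 0.0545), and it passed there without homeostasis library 1, 2 or 4 (adjusted p = 0.0488, 0.0418 and 0.0457). In a fit of the inflammation and resolution libraries alone, blocked by replicate number, it passed too, with a log2 fold change of -0.46 (adjusted p = 0.0198). Kif4 also passed there with the DESeq2 Wald test (adjusted p = 0.0285) and with upper-quartile scaling in edgeR (adjusted p = 0.0335). It did not pass without a filter on low counts, or with all 12 libraries blocked by replicate number.

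The 3 spindle assembly genes were lower in each comparison, with medians of -1.79, -2.72 and -0.89. Tpx2, the activator of Aurora A, was at 200.3, 247, 144 and 152 CPM in homeostasis, 50.9, 48.6, 53.2 and 52.5 CPM in inflammation and 31.9, 23.1, 28.0 and 29.8 CPM in resolution. Hmmr, a spindle protein and hyaluronan receptor, was at 34.5, 27.7, 30.8 and 30.4 CPM in homeostasis, 16.4, 18.3, 17.9 and 10.5 CPM in inflammation and 10.00, 5.00, 9.85 and 9.29 CPM in resolution. The groups were apart for both, and the log2 fold change in resolution was -2.72 (SE 0.17, adjusted p = 1.21e-10) for Tpx2 and -1.85 (SE 0.21, adjusted p = 5.91e-07) for Hmmr.

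Among 7 condensin and chromosome genes, 6 were lower in inflammation, all 7 in resolution against homeostasis, and 6 in resolution against inflammation, with medians of -0.99, -1.84 and -0.92. Ncapd2, a condensin I subunit, was at 148, 129, 123 and 128 CPM in homeostasis, 32.3, 31.9, 29.9 and 33.7 CPM in inflammation and 16.1, 17.5, 15.0 and 17.2 CPM in resolution. Smc2, the ATPase shared by both condensins (ENSMUSG00000028312.19, GRCm38, chr4:52439243-52488260, plus strand), was at 47.4, 28.1, 43.2 and 35.5 CPM in homeostasis, 31.8, 32.6, 35.9 and 23.1 CPM in inflammation and 16.1, 11.8, 25.01 and 19.6 CPM in resolution. The log2 fold change in inflammation was -2.05 (SE 0.12, adjusted p = 3.84e-10) for Ncapd2, whose groups lay apart, and -0.32 (SE 0.21, adjusted p = 0.238) for Smc2, whose inflammation libraries overlapped both other groups. Smc2 passed between resolution and inflammation, -0.77 (SE 0.21, adjusted p = 0.0181), but not without inflammation library 3 (adjusted p = 0.0548) or without resolution library 1 (adjusted p = 0.0543). Smc4, its partner ATPase, was lower in both groups against homeostasis, and resolution against inflammation gave -0.33 (SE 0.19, adjusted p = 0.237). Top2a, the topoisomerase that untangles sister chromatids, was at 149, 108, 131 and 114 CPM in homeostasis, 62.5, 64.1, 66.9 and 57.9 CPM in inflammation and 41.6, 20.9, 46.7 and 42.6 CPM in resolution. Mki67, the Ki-67 protein that coats chromosomes and is used to stain cycling cells, was at 116, 75.6, 103 and 74.5 CPM in homeostasis, 31.4, 31.0, 39.0 and 27.1 CPM in inflammation and 14.8, 8.08, 19.8 and 15.1 CPM in resolution. Groups did not overlap for either, and the log2 fold change in resolution was -1.72 (SE 0.19, adjusted p = 4.45e-07) for Top2a and -2.67 (SE 0.22, adjusted p = 9.80e-09) for Mki67.

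The 4 cytokinesis genes were lower in each comparison, with medians of -1.62, -2.73 and -1.06. Racgap1, a subunit of centralspindlin at the cell equator, was at 129, 148, 102 and 103 CPM in homeostasis, 29.2, 26.9, 26.2 and 27.3 CPM in inflammation and 14.9, 11.4, 11.4 and 12.7 CPM in resolution. Ect2, the exchange factor that activates RhoA there, was at 32.5, 19.5, 24.4 and 20.9 CPM in homeostasis, 14.2, 9.54, 13.1 and 9.50 CPM in inflammation and 6.39, 3.08, 6.76 and 7.67 CPM in resolution. Their groups lay apart, with log2 fold changes in resolution of -3.26 (SE 0.16, adjusted p = 5.21e-12) and -2.02 (SE 0.24, adjusted p = 1.07e-06). Prc1, a microtubule bundler, and Anln, the scaffold anillin, had log2 fold changes of -3.14 and -2.31 in resolution.

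Both transcription factors were lower in each comparison. Mybl2, which encodes B-MYB (ENSMUSG00000017861.11, GRCm38, chr2:163054687-163084688, plus strand), was at 25.9, 27.6, 26.3 and 35.4 CPM in homeostasis, 4.98, 6.76, 4.65 and 5.04 CPM in inflammation and 1.96, 2.43, 1.04 and 1.02 CPM in resolution. Foxm1 was at 73.8, 67.6, 67.6 and 82.7 CPM in homeostasis, 16.8, 18.7, 18.4 and 15.6 CPM in inflammation and 8.09, 9.58, 6.08 and 7.63 CPM in resolution. No libraries of different groups overlapped. Mybl2 had log2 fold changes of -2.42 (SE 0.22, adjusted p = 6.51e-08) in inflammation and -4.16 (SE 0.25, adjusted p = 7.59e-11) in resolution, and Foxm1 had -2.07 (SE 0.15, adjusted p = 4.27e-09) and -3.22 (SE 0.16, adjusted p = 8.05e-12).

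Levels between genes were compared only per length, as RPKM, which is CPM divided by the exon length in kilobases. In homeostasis Cdc20 was highest at 78.5 ± 13.8 (SD, n = 4) RPKM, followed by Plk1 at 61.3 ± 2.46 (SD, n = 4) and Kif20a at 47.3 ± 11.8 (SD, n = 4), where mean ± SD of Plk1 and Kif20a overlap, and Cenpf was lowest at 1.12 ± 0.309 (SD, n = 4). In resolution Cdc20 was still highest, at 7.02 ± 0.444 (SD, n = 4) RPKM, followed by Incenp at 6.58 ± 0.823 (SD, n = 4), within the SD of each other, and Cenpf was lowest, at 0.294 ± 0.0889 (SD, n = 4).

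The size of the change varied with the GC content of the transcripts. Over the 47 genes, Pearson's r between GC content and log2 fold change was -0.69 in inflammation and -0.67 in resolution against homeostasis, and -0.463 between resolution and inflammation. These are descriptions across genes measured in the same libraries, and genes are not independent replicates. The 12 members of lowest GC (34.8% to 43.3%), among them Smc2, Smc4, Cenpe, Kif11 and Ttk, had median log2 fold changes of -1.02 and -1.96 against homeostasis. For the 12 of highest GC (51.4% to 56.3%), among them Plk1, Cdc20, Mybl2 and Foxm1, they were -1.98 and -3.28. The GC-poor members also differed between libraries of a group. As a median share of the homeostasis mean they stood at 39.5% in inflammation library 4 and at 51.7% to 56.3% in the other inflammation libraries, and at 17.9% in resolution library 2 and 26.1% to 28.7% in the other resolution libraries. In homeostasis libraries 1 to 4 they stood at 117, 82.5, 103 and 91.8%. The GC-rich members stood at 25.9, 28.6, 23.9 and 23.6% in inflammation libraries 1 to 4. In resolution libraries 1 to 4 the GC-rich members stood at 10.6, 12.5, 9.56 and 10.0%.

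With each library corrected for GC content and transcript length, a setting chosen after seeing the data, all 47 genes were lower in all 3 comparisons. Of all genes then tested, 44.8%, 53.7% and 16.3% passed in either direction, in the order above. Cenpe in inflammation then had a log2 fold change of -0.76 (adjusted p = 0.00449) and Smc2 one of -0.79 (adjusted p = 0.000342). The range over the 47 narrowed to -2.31 to -0.76 in inflammation and to -4.12 to -1.73 in resolution, and r was -0.467 and -0.278.

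**Figure D4:**
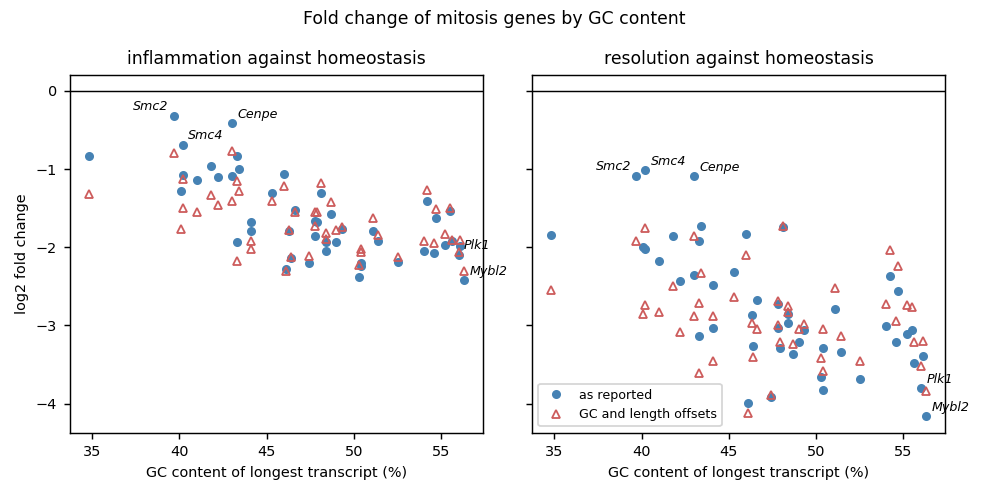
Log2 fold change of each of the 47 genes against the GC content of its transcripts (percent), for the comparisons with homeostasis, as fitted and with GC and length offsets. Pearson's r moves from -0.69 to -0.467 in inflammation and from -0.67 to -0.278 in resolution with the offsets.

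Other genes of the same machinery were read from lists. For each list, the shares over all genes were 18.3% lower and 19.0% higher in inflammation against homeostasis. They were 25.8% and 27.5% in resolution against homeostasis, and 7.64% and 8.52% in resolution against inflammation. Of 40 further periodic mitosis genes, such as the kinetochore gene Ndc80, 37 were lower and none higher in inflammation, with a median log2 fold change of -1.49. In resolution 38 were lower against homeostasis (median -2.63) and 29 against inflammation (median -1.03). Zwint, a kinetochore linker, was the exception that rose, by 0.75 on the log2 scale (SE 0.15, adjusted p = 0.000356) in resolution against homeostasis and 0.46 on the log2 scale (SE 0.15, adjusted p = 0.0424) against inflammation. With upper-quartile scaling no gene of this list was higher in resolution than in inflammation. Psrc1 passed in no comparison. Of 27 genes of DNA replication, 26 were lower in inflammation, all 27 in resolution against homeostasis and 20 in resolution against inflammation, with medians of -1.47, -2.36 and -0.95. Among them Mcm5, a subunit of the replicative helicase, was at -3.23 on the log2 scale (SE 0.14, adjusted p = 1.95e-12) in resolution against homeostasis.

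The anaphase-promoting complex has subunits that are mostly constant through the cycle. Of its 15 subunits and cofactors, 6 were lower and 1 was higher in inflammation, 6 and 2 in resolution against homeostasis, and none passed between resolution and inflammation. There 5 were higher and 5 lower once homeostasis 2, inflammation 4 and resolution 2 were left out together, a setting chosen after seeing the data. With the GC and length correction 0 were higher in inflammation and 1 in resolution against homeostasis. Anapc5, a scaffold subunit, was lower in resolution, at -1.16 on the log2 scale (SE 0.12, adjusted p = 1.35e-07), and Cdc27, another subunit, was higher by 1.11 on the log2 scale (SE 0.17, adjusted p = 2.84e-05). Of 10 cohesin genes, 6 were higher and 2 lower in inflammation, and 7 and 1 in resolution, with medians of 0.56 and 1.02. Stag2, a core subunit, was higher in resolution by 1.37 on the log2 scale (SE 0.14, adjusted p = 2.63e-07), and Nipbl, the cohesin loader, by 1.69 on the log2 scale (SE 0.23, adjusted p = 5.77e-06). With the GC and length correction the cohesin counts were 4 higher and 2 lower in both comparisons, and the medians were 0.18 and 0.21. Between resolution and inflammation 2 cohesin genes were higher and none was lower, but 0 were higher with that correction and 8 without homeostasis 2, inflammation 4 and resolution 2.

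Another list held genes of the MuvB complex, the RB family and NF-Y, with E2f4, E2f5 and Tfdp1, which regulate the periodic genes. Of these 14 genes, 6 were lower and 1 was higher in inflammation. In resolution against homeostasis 7 were lower and 3 higher. The shares over all genes were 18.3% lower and 19.0% higher in inflammation, and 25.8% and 27.5% in resolution. Between resolution and inflammation 2 were higher and none was lower, against 8.52% and 7.64% of all genes. Rb1, the retinoblastoma protein that restrains cell cycle entry, was higher in resolution than in homeostasis by 1.89 on the log2 scale (SE 0.19, adjusted p = 1.15e-07) and than in inflammation by 0.93 on the log2 scale (SE 0.18, adjusted p = 0.00156). Rbl2, its relative p130, was higher than in inflammation by 0.71 on the log2 scale (SE 0.23, adjusted p = 0.0404). Nfyc, an NF-Y subunit, was lower in inflammation, at -1.03 on the log2 scale (SE 0.16, adjusted p = 6.64e-05).

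**Figure D5:**
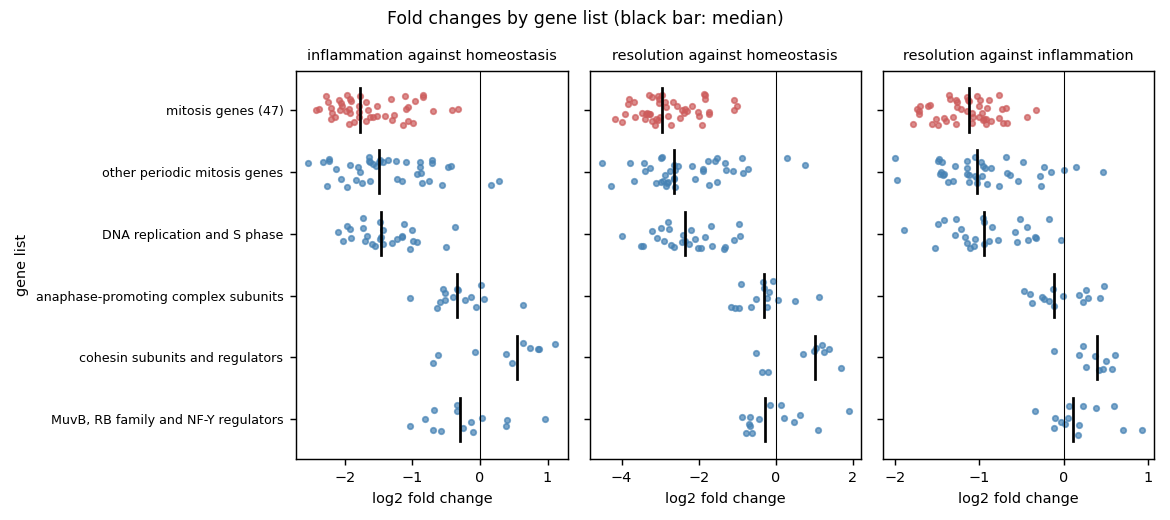
Log2 fold changes of the genes of each list in the 3 comparisons, with 1 point per gene and a bar at the median. The 47 members, the further periodic mitosis genes and the replication genes lie mostly below 0, and the cohesin genes lie mostly above 0 in both comparisons with homeostasis.

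Of the macrophage markers, all 10 were higher in inflammation than in homeostasis (19.0% of all genes). All 10 were lower in resolution than in inflammation (7.64%), and 7 were lower in resolution than in homeostasis (25.8%). Of 9 fibroblast markers, 4 were lower and 1 higher in inflammation (18.3% and 19.0% of all genes). In resolution against homeostasis 7 were lower and 1 higher (25.8% and 27.5%). Of 5 cartilage markers tested, 4 were lower and none was higher in inflammation (18.3% and 19.0% of all genes). In resolution against homeostasis 4 of these 5 were lower and 1 was higher (25.8% and 27.5%). The part of these cells in the levels of the mitotic genes was not tested.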

How the data were processed

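The authors deposited a single table of raw expected counts, with a row for each gene symbol and a column for each library, and the submitters' processing notes give the build as GRCm38.p3. The sources used here name no aligner, counting tool, strand setting or annotation. Groups and replicate numbers came from the sample titles. Of 36930 entries, 13 had no value, and repeats of 34 symbols were summed, leaving 36875 symbols. Values were rounded (1.43% were not whole). Within groups, reduced chi-squares between libraries ran from 10.2 to 114, so none was counted as a repeat.

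Genes were filtered by expression (filterByExpr, 15049 kept), scaled by TMM and tested with edgeR 4.0.16 (R 4.3.3), by the quasi-likelihood F test fitted to the 12 libraries together on group alone. P-values were adjusted by Benjamini-Hochberg over all genes tested, with a threshold of 0.05. Each standard error was derived from the test, as the absolute log2 fold change divided by the square root of F. The steps were also run on simulated counts with few changed genes, 1 fixed dispersion and no GC effect, so that run does not cover the conditions of these data. The members and lists were chosen with earlier results of these data known. Values in every library are given for Plk1, Cdk1, Ccnb1, Top2a and Mki67, the largest and the smallest fold change of each role in inflammation, members that did not pass there, and the 5 smallest adjusted p in resolution against inflammation. Kif4, Smc4, Cdc25c, Cenpf and the genes of other lists were named after their values were seen. Exon length, GC content and locations came from GENCODE M21 (GRCm38), and promoters from RefSeq. Of 150 list symbols, 7 were found under another symbol. DESeq2 1.42.0 served as an alternative.

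Same-numbered inflammation and resolution libraries had correlated deviations (0.13 to 0.21, each over 0.1). The labels state no pairing, and the main fit used none. Replicate number served as a block only in alternative fits. Differently numbered libraries of these groups ran from -0.25 to 0.20, and inflammation 1 correlated more with resolution 2 (0.20) than with resolution 1 (0.14). Same-numbered libraries compared with homeostasis ran from -0.23 to 0.08. Differently numbered ones ran from -0.34 (homeostasis 1 with resolution 2) to 0.35 (homeostasis 4 with resolution 2). Libraries of different numbers thus also reached correlations above 0.21. The fit with the number as a block let Cenpe pass between resolution and inflammation (log2 fold change -0.70, adjusted p = 0.0362).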

Additional observations from a re-analysis of the deposited data

Results flagged for a closer look

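In 141 groups of 4 libraries (47 genes in 3 groups), 7 held 1 library far from the other 3, by a gap larger than Dixon's ratio allows at the 95% level. Chance flags about 5% of groups.

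Homeostasis library 1 was high for Cdc25c (19.1 CPM, against 11.5 to 11.7 in the others) and for Smc4 (82.9 CPM, against 55.1 to 58.6). Homeostasis library 2 was low for Espl1 (40.6 CPM, against 58.6 to 61.2) and high for Incenp (217 CPM, against 147 to 155). Inflammation library 4 was high for Spag5, a spindle protein (25.5 CPM, against 17.9 to 18.5). Resolution library 2 was low for Hmmr (5.00 CPM, against 9.29 to 10.0) and for Anln (10.1 CPM, against 18.4 to 19.9). Hmmr is among the 12 members of lowest GC content, and resolution library 2 was the lowest of its group for the median of those 12. Anln is not among them. Espl1 and Incenp, flagged in opposite directions in homeostasis library 2, are both among the 12 of highest GC content. A link between these flags and GC content was not tested.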

How the results depend on the processing

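The count of members lower in inflammation than in homeostasis was 45 in every setting run other than the GC and length offsets, where it was 47, and the count in resolution against homeostasis was 47 in all of them. Between resolution and inflammation it ran from 42 to 47, and from 42 to 46 when 1 library was left out. With the replicate number as a block the counts were 45, 47 and 45 in the order above, with 43 lower in all 3. With only inflammation and resolution libraries in the fit, blocked by replicate number, 46 were lower. The median log2 fold change over members ran from -1.82 to -1.57, from -3.04 to -2.73 and from -1.24 to -1.08. Of 1904 values for 28 named genes under the alternatives, 1890 kept direction and side of the threshold, 2 no longer passed (Smc2 between resolution and inflammation, given above), 12 newly passed (Cenpe and Smc2) and 0 reversed. The block changed no call of these 28 other than that of Cenpe. Kif4, Cdc25c and Smc4 are not among these 28, and their calls between resolution and inflammation changed under some of the alternatives.

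No member had a count of 0 in any library. The libraries carry no molecular identifiers in the sources used here, so limits cover counting error only. Sex and any difference of genotype cannot be told apart from doxycycline against homeostasis, and the labels name no cultures. Strand use is not stated, so reads of overlapping genes cannot be told apart.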
